A study of Homo sapiens with 2 samples.

Results

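The genes described here are those that stood at low levels in prostate cancer cells treated with ebastine and at clearly higher levels in the vehicle control. They were selected on the measured values themselves: under 2 FPKM with ebastine (fragments mapped to a gene, scaled to its transcript length and to the size of the library) and at least 1.5 times as high with vehicle. CA9 and genes whose names start with SLC, ZNF, ABC, KIF, LINC, LOC, MIR, SNOR or HIST were left out by name. This gave 148 of the 1947 genes in the deposited table. Of all listed genes, 519 were at least 1.5-fold lower with ebastine (26.7%), and among the 347 listed genes under 2 FPKM with ebastine the number was 168 (48.4%). From these 168 genes, 20 were left out by name. Both libraries entered the choice of members, so every difference between them below is a description without a test.

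C4-2 is a widely used line of human prostate cancer cells. It was obtained from LNCaP, makes androgen receptor and does not depend on a normal supply of androgen. Polyadenylated RNA was sequenced from cells at passage 10 to 15, from 1 library of cells given vehicle and 1 library of cells given ebastine, an antihistamine that blocks the H1 receptor. No other treatment and no genetic change is named in the labels, and for dose and time of exposure the sources used here give no value. The title of the study gives EZH2, a histone methyltransferase, as what the drug acts on.

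A transcript at a few FPKM or less in a bulk culture can belong to a gene weakly transcribed in all cells or transcribed in few of them. Its FPKM gives the level of RNA and not the rate of transcription. In a bulk library, fewer cells of a kind and less RNA per cell cannot be told apart. Genes of other lineages are often found in this range in cell lines, among them developmental transcription factors, neuronal proteins and secreted factors. EZH2 is the catalytic subunit of Polycomb repressive complex 2, which places a repressive mark on histone H3 at many such developmental genes.

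In the vehicle library the 148 genes ran from 0.518 to 5.23 FPKM, with a median of 1.48 and quartiles at 0.834 and 2.48. With ebastine they ran from 0 to 1.97 FPKM, with a median of 0.744. The number under 1 FPKM was 50 with vehicle and 95 with ebastine. The ratio of vehicle over ebastine, available for 146 genes, had a median of 1.86 and quartiles at 1.67 and 2.32, with a smallest value of 1.5002. The median stood beside 1.27 over all listed genes, a difference that the 1.5-fold limit of the rule brings with it. At least 2-fold lower were 61 of the 148 genes, counting those at 0, and 18 were at least 3-fold lower. With the same names left out, 330 genes at least 1.5-fold lower stayed at 2 FPKM or more with ebastine. Of these, 89 were at least 2-fold lower. Over all listed genes, not chosen by the 1.5-fold limit, the share was 8.73%. Listed at 0 with ebastine were 2 genes, to which no ratio can be given. The unnamed transcript DQ583499 stood at 0.614 FPKM with vehicle, and UQCRHL, a near copy of the respiratory chain gene UQCRH, at 0.527 FPKM. Of all listed genes 1080 were lower and 867 higher with ebastine. After centring the libraries on their median ratio the numbers were 975 and 972, a near-even split that centring itself brings. The counts on gene lists below are to be read beside these numbers, and the lists were written with earlier results of these data known. In the higher direction 377 listed genes were at least 1.5-fold higher with ebastine (19.4%). By the mirrored rule, under 2 FPKM with vehicle and with the same names left out, 170 of these were low genes rising.

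**Figure D1:**
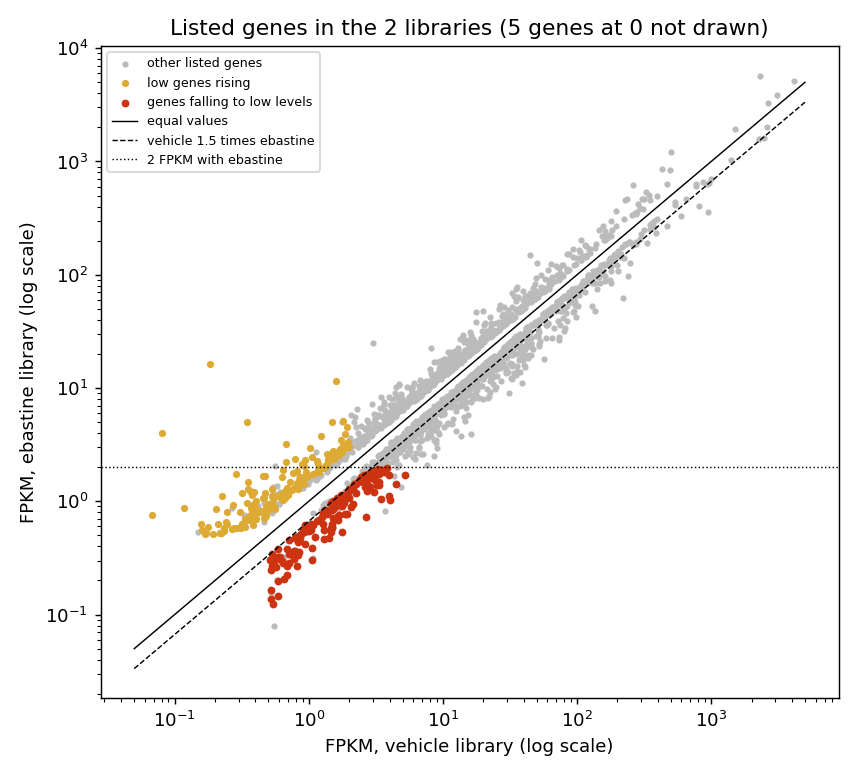
FPKM of the listed genes in the vehicle library (horizontal, log scale) and the ebastine library (vertical, log scale), 1 point per gene and 1 library per group. The genes falling to low levels (red, 146 drawn because the 2 at 0 have no place on a log scale) lie below the dashed line of a 1.5-fold ratio and the dotted line of 2 FPKM, and no listed gene with both values under 0.513 FPKM appears.

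The lower edge of the set was fixed by the table and not by the members. In every listed gene the higher of the 2 values was at least 0.513 FPKM, and every listed gene had a p-value of at most 0.0499 in the authors' deposited table. A q-value under 0.05 was given there to 56 of the 148 genes (37.8%), against 41% of all listed genes, and 20 had the smallest p-value it holds, 5e-05. The authors' deposited table compares 1 library with 1 library, so its q-values speak of these libraries and not of the treatment. The share below q = 0.05 in the authors' deposited table went up with the level in the vehicle library. It was 11 of 50 genes under 1 FPKM, 15 of 51 from 1 to 2 FPKM, 17 of 27 from 2 to 3 FPKM and 13 of 20 above that. The median ratio did not follow that order, at 1.93, 1.80, 1.67 and 2.14 from the lowest to the highest group. With the same names left out, 330 genes were at least 1.5-fold lower but stayed at 2 FPKM or more with ebastine. Of these, 297 had q below 0.05 in the authors' deposited table, and the median ratio of the 330 was 1.74.

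At the limits the values run on without a gap. The members nearest 2 FPKM with ebastine were LIPT2 (1.97), ARHGAP33 (1.92) and ARHGAP11B (1.88), and the nearest genes outside were CNTRL (2.013), CYP4F8 (2.014) and SH3GL3 (2.02). The smallest ratios inside were those of PELI1 (1.5002), RAPGEF5 (1.51) and NAV2 (1.51), and the nearest outside were NPY1R (1.498), ETNK2 (1.498) and PAQR5 (1.48).

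Cell division and genome maintenance held only 6 of the genes but the 2 highest ones. FAM72A (chr1:206138911-206155074 in hg19), which promotes the breakdown of a uracil-DNA glycosylase and has near-identical copies, stood at 5.23 FPKM with vehicle and 1.69 with ebastine, a 3.09-fold ratio. GAS2L3 (chr12:100967489-101018685), which links actin to microtubules and acts in cytokinesis, went from 4.45 to 1.43 FPKM, a 3.11-fold ratio. Both had a q-value of 0.00178 in the authors' deposited table. ARHGAP11B, a human-specific partial duplicate of the mitotic regulator ARHGAP11A, stood at 3.50 and 1.88 FPKM. Its reported locus equals that of an unnamed listed gene, and reads from the 2 copies may have been split. C17orf53, now named HROB, which loads a helicase in homologous recombination, stood at 1.97 and 1.22 FPKM. The microtubule protein FSD1 went from 0.730 to 0.340 FPKM, and AURKC, the Aurora kinase of meiosis, from 0.712 to 0.283 FPKM. The q-values of these last 4 ran from 0.0839 to 0.285 in the authors' deposited table.

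The upstream sequence is shown for FAM72A, ARHGAP11B and C17orf53, because promoters of cell cycle genes often carry CCAAT boxes, bound by NF-Y, together with TTTGAA or TTCGAA elements or with E2F-type elements written TTTGGCGC and TTTCCCGC. Each is the 250 bases before the RefSeq start in GRCh38.p14, read 5′ to 3′ along the gene, and capitals mark these motifs on either strand.
FAM72A, chr1:206202840-206203089, minus strand: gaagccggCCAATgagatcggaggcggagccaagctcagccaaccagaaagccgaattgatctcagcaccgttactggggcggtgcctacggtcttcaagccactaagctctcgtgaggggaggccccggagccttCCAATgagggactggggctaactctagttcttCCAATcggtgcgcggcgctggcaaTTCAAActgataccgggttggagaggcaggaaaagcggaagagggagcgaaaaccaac
ARHGAP11B, chr15:30625878-30626127, plus strand: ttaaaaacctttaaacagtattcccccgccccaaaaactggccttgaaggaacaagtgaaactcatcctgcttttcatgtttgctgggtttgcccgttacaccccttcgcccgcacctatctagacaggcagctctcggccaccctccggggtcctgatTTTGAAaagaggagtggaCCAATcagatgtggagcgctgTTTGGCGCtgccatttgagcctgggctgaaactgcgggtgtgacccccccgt
C17orf53, chr17:44141680-44141929, plus strand: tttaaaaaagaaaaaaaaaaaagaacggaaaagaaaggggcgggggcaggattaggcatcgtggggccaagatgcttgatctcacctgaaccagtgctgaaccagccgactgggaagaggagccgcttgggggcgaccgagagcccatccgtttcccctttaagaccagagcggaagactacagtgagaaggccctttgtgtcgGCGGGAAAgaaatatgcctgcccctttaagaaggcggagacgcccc
In FAM72A the capitals begin 242, 114 and 82 bases before the start for CCAAT and 58 bases before it for TTTGAA, which lies on the opposite strand. In ARHGAP11B, TTTGAA begins 91, CCAAT 73 and TTTGGCGC 52 bases before the start. C17orf53 holds TTTCCCGC on the opposite strand 46 bases before the start. A match of letters is a description of the sequence and does not show that a factor binds there.

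The listed mitotic genes were lower mostly at higher levels. Every listed gene had a p-value of at most 0.0499 in the authors' deposited table, so mitotic genes above that value are not counted here. The G2/M and mitosis list had 92 genes in the table and 92 were lower with ebastine, 84 past the 1.5-fold limit, but only 2, ARHGAP11B and AURKC, ended under 2 FPKM. From the DNA replication list all 38 listed genes were lower and 17 were at least 1.5-fold lower, and from the DNA repair list 23 of 24 and 12, with 0 members in either. After centring the libraries on the median ratio the numbers lower were 92, 36 and 23. The mitotic motor KIF18A, left out by name, had gone from 4.34 to 1.68 FPKM.

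Matrix, secreted proteases and other extracellular proteins made up 16 of the genes, with a median ratio of 2.28. LOX (chr5:121398890-121414055), the oxidase that cross-links collagen and elastin, stood at 3.46 FPKM with vehicle and 1.05 with ebastine, a 3.28-fold ratio. C2orf82, now named SNORC, a proteoglycan of cartilage, had the larger ratio, 3.93-fold, from 4.04 to 1.03 FPKM. Tetranectin (CLEC3B), which binds plasminogen, went from 1.78 to 0.533 FPKM, a 3.34-fold ratio. The kallikrein proteases KLK14 and KLK12, 42.6 kb apart on chromosome 19, both stood in this set. KLK14 went from 2.61 to 1.35 FPKM and KLK12 from 1.31 to 0.562 FPKM. ENPP3, an ectoenzyme that cleaves extracellular nucleotides, went from 1.93 to 0.776 FPKM, the metalloprotease ADAM12 from 0.779 to 0.307 FPKM, and ODAM, a protein of tooth enamel formation, from 1.85 to 0.769 FPKM. The sushi-repeat protein SRPX stood at 1.499 and 0.632 FPKM and complement component C5 at 0.971 and 0.542 FPKM. The synapse organisers CBLN2 (2.87 to 1.60 FPKM) and C1QL1 (1.67 to 0.751 FPKM) also belong here. CCDC3, SHISA3, ZP1 and SPOCK1 had ratios of 1.54, 1.62, 1.82 and 1.55. By the authors' deposited table q was below 0.05 in 7 of the 16, namely LOX, ENPP3, ADAM12, CBLN2, SRPX, C5 and ODAM, while that of C2orf82 was 0.166 and that of CLEC3B 0.102.

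**Figure D2:**
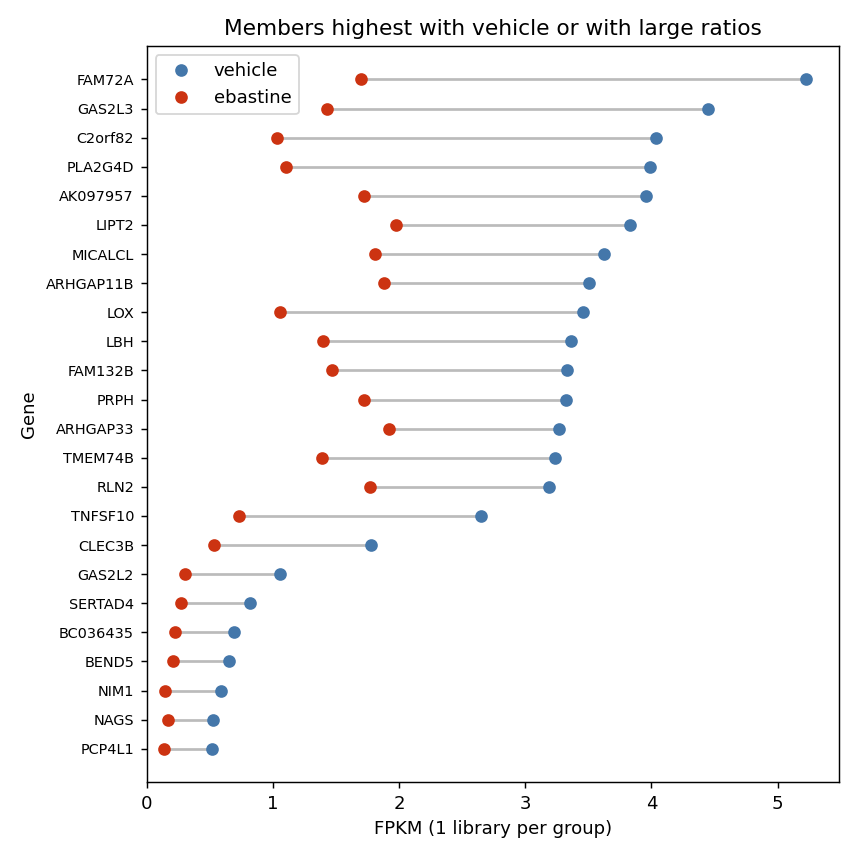
FPKM in the vehicle (blue) and ebastine (red) library for the 15 genes highest with vehicle and for others with large ratios, with 1 library per group and no error bars. FAM72A, GAS2L3, C2orf82, PLA2G4D and LOX combine both, whereas NIM1 and PCP4L1 reach their ratios at under 0.6 FPKM with vehicle.

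Secreted ligands and hormones numbered 7, with a median ratio of 2.27. TNFSF10 (chr3:172223298-172241297), the death ligand TRAIL, stood at 2.65 FPKM with vehicle and 0.734 with ebastine, a 3.61-fold ratio with a q-value of 0.00178 in the authors' deposited table. FAM132B, which encodes the iron regulator erythroferrone, went from 3.33 to 1.47 FPKM. RLN2, the peptide hormone relaxin, stood at 3.19 and 1.77 FPKM, and AMH, the anti-Müllerian hormone, at 2.54 and 1.49 FPKM. The epithelial cytokine IL17C went from 1.46 to 0.533 FPKM and the metabolic hormone FGF21 from 1.46 to 0.586 FPKM. ANGPTL4, an inhibitor of lipoprotein lipase, stood at 0.636 and 0.296 FPKM. Besides TNFSF10, FAM132B and AMH had q below 0.05 in the authors' deposited table. The list of growth factors, cytokines and hormones had 10 of its 21 listed genes lower and 11 higher, beside 1080 and 867 of all listed genes, 4 were members, and 5 were low genes rising.

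LOX and ANGPTL4 are also on the hypoxia list, a set of genes induced at low oxygen, as are KISS1R and FAM115C. That list was written with earlier results of these data known, so its counts are a description only. All 38 listed genes of that list were lower with ebastine, 37 after centring, and 24 were at least 1.5-fold lower. Of these 24, the members described here numbered 4, and 17 others stayed at 2 FPKM or more with ebastine. The rest of the 24 were left out by name. CA9, left out by name, went from 3.70 to 0.827 FPKM. The hypoxia-inducible factors can bind a core of ACGTG letters, and other forms of the core were not searched. For this, the 250 bases before the start of LOX and ANGPTL4 are shown with ACGTG in capitals on either strand. In ANGPTL4, TATAAA is in capitals as well.
LOX, chr5:122078260-122078509, minus strand: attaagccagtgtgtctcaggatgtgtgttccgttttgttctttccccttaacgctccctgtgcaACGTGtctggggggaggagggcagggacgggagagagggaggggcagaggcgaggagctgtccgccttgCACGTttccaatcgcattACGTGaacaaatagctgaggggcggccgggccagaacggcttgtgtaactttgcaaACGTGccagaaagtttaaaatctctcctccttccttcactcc
ANGPTL4, chr19:8363905-8364154, plus strand: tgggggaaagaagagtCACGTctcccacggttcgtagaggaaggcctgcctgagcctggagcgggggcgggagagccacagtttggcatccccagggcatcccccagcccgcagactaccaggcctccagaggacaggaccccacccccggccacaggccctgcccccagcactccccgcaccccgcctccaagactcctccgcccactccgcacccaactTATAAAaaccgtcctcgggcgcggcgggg
LOX holds ACGTG at 4 places, the farthest beginning 185 and the nearest 42 bases before the start. ANGPTL4 holds it at 1 place, 234 bases before the start, and TATAAA at 29 bases. Over 106 promoter windows of protein-coding members ACGTG was present in 35 (33.0%), against 27.7% of all listed protein-coding genes and 21.6% of all promoters in the reference table.

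Receptors numbered 8 and had a median ratio of 1.76. The ephrin receptor EPHA3 went from 2.92 to 1.63 FPKM and the kisspeptin receptor KISS1R from 2.72 to 1.65 FPKM. SLITRK6, a neuronal adhesion receptor, stood at 1.81 and 1.05 FPKM, the orphan receptor GPR19 at 1.77 and 0.908 FPKM, and RET, the receptor of glial cell line-derived ligands, at 1.04 and 0.634 FPKM. The largest ratio of the class, 2.38-fold, was that of the orphan receptor GPR26, from 0.845 to 0.355 FPKM. GHRHR, the receptor of growth hormone-releasing hormone, stood at 0.786 and 0.366 FPKM and the kainate receptor subunit GRIK5 at 0.798 and 0.485 FPKM. In the authors' deposited table EPHA3, SLITRK6 and GPR26 had a q-value under 0.05. On the list of G protein-coupled receptors, which lacks GHRHR, 9 of 23 listed genes were lower and 14 higher, with 3 members (KISS1R, GPR19 and GPR26) and 6 low genes rising.

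Channels, pumps and junction proteins numbered 7. EFCAB4B, a regulator of calcium release-activated channels, went from 1.06 to 0.388 FPKM and was the only one of the 7 below q = 0.05 in the authors' deposited table (0.00945). STEAP1B, a near copy of STEAP1, stood at 2.55 and 1.57 FPKM, the scramblase PLSCR1 at 1.53 and 0.853 FPKM, and the tight junction protein CLDN8 at 1.25 and 0.722 FPKM. The lipid flippase ATP8B3 and the potassium channel subunit KCNMB4 had ratios of 1.71 and 1.56. Of the 25 listed genes on the ion channel list 5 were lower and 20 higher with ebastine, beside 1080 and 867 of all listed genes. The list had 3 members, GRIK5 and KCNMB4 among them, and 7 low genes rising.

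Cytoskeletal, scaffold and cilium genes numbered 14, with a median ratio of 2.03. MICALCL, a MICAL-like protein, went from 3.62 to 1.81 FPKM, a 2.01-fold ratio. The neuronal intermediate filament peripherin (PRPH) went from 3.33 to 1.73 FPKM, the dendritic microtubule protein MAP2 from 2.77 to 1.69 FPKM, and DPYSL3, a collapsin response mediator, from 2.15 to 1.28 FPKM. GAS2L2, a relative of GAS2L3 that acts in motile cilia, stood at 1.06 FPKM with vehicle and 0.305 with ebastine, a 3.46-fold ratio. Other cilium and flagellum genes were TTC29 (1.64 to 0.737 FPKM), DZIP1 (1.52 to 0.998 FPKM), MORN5 (1.48 to 0.596 FPKM) and LCA5 (0.810 to 0.465 FPKM). S100A10 and ANXA2, which encode the 2 partners of a membrane-bound complex that binds plasminogen, both stood in the set. S100A10 went from 1.42 to 0.472 FPKM and ANXA2, which has processed pseudogenes, from 0.567 to 0.263 FPKM. ACTL8, NAV2 and CCDC155 had ratios of 2.99, 1.51 and 2.05. Among these 14 genes, 7 had a q-value under 0.05 by the authors' deposited table (MICALCL, PRPH, MAP2, DPYSL3, TTC29, DZIP1 and GAS2L2), and those of S100A10 and ANXA2 were 0.101 and 0.288.

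Regulators of signalling and small GTPases also numbered 14, with a median ratio of 1.91. The GTPase-activating protein ARHGAP33 stood at 3.27 and 1.92 FPKM, and SGK1, a kinase induced by serum and steroid hormones, at 3.10 and 1.70 FPKM. The kinase anchoring proteins AKAP7 and AKAP12 went from 2.78 to 1.72 FPKM and from 0.831 to 0.335 FPKM. PPP1R1B, the dopamine-regulated phosphatase inhibitor, went from 2.73 to 1.22 FPKM. The focal adhesion scaffold NEDD9 stood at 2.71 and 1.43 FPKM, and the Rap exchange factor RAPGEF5 at 2.57 and 1.70 FPKM. PREX1, an exchange factor for Rac, went from 1.65 to 0.677 FPKM, a 2.44-fold ratio. NIM1, a kinase of the AMPK-related family, had a 4.02-fold ratio, from 0.585 to 0.146 FPKM. These 9 of the 14 genes had q-values from 0.00178 to 0.0449 in the authors' deposited table. Of all listed genes 41% had q below 0.05 there. The remaining ones, TNFAIP8L1, RHEBL1, ANKS1B, PHLDB2 and DAB2, had ratios from 1.72 to 2.56, and the locus given for ANKS1B is shared with APAF1.

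**Figure D3:**
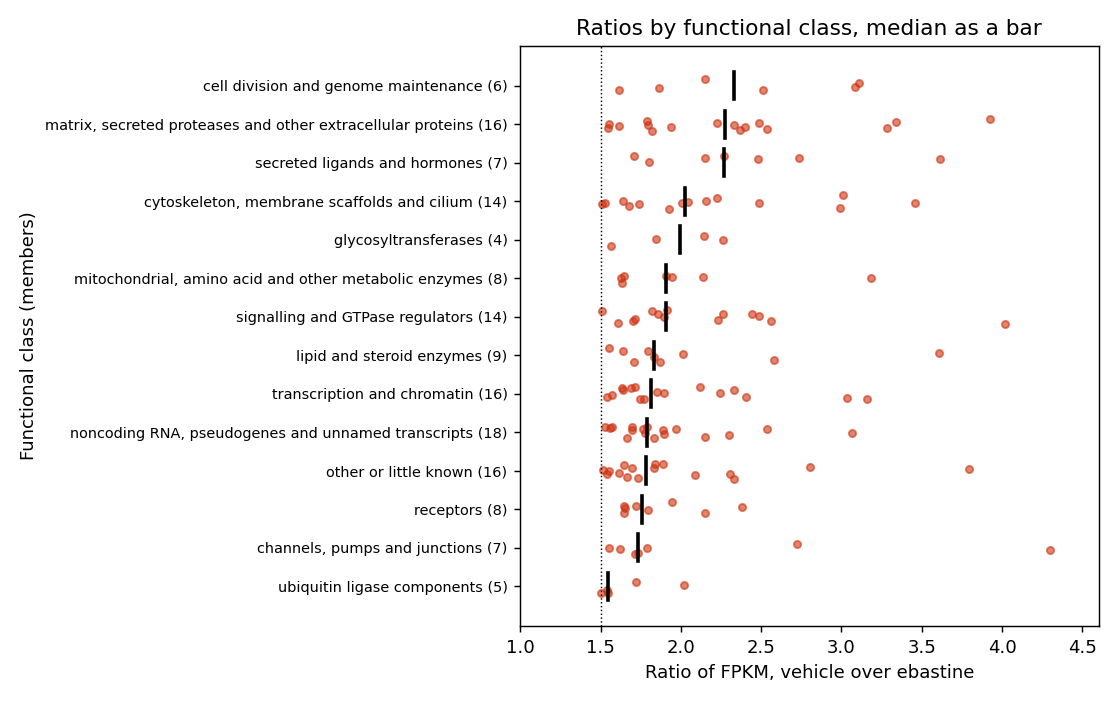
Ratio of FPKM, vehicle over ebastine, for the 146 genes with a ratio, by functional class (number of members in brackets, genes at 0 included), with each gene as a point and the class median as a bar. The dotted line marks the 1.5-fold limit of the rule, and the medians run from 1.55 for ubiquitin ligase components to 2.33 for cell division.

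Transcription and chromatin genes numbered 16, with a median ratio of 1.81. LBH, a cofactor of limb and heart development, went from 3.36 to 1.40 FPKM, NFATC4, a calcium-regulated factor, from 0.938 to 0.418 FPKM, and HR, a corepressor of hair growth, from 0.525 to 0.248 FPKM. These 3 had q below 0.05 in the authors' deposited table and the others did not. The homeodomain factors SIX2 (2.43 to 1.57 FPKM), ISL2 (2.00 to 1.08 FPKM), DMBX1 (1.60 to 0.904 FPKM) and BARX2 (1.20 to 0.685 FPKM) had ratios from 1.54 to 1.85. The segmentation clock repressor HES7 stood at 1.12 and 0.479 FPKM and the oligodendrocyte factor OLIG1 at 0.954 and 0.582 FPKM. BEND5 and SERTAD4 had the largest ratios of the class, 3.16 and 3.04, from 0.649 to 0.205 FPKM and from 0.820 to 0.270 FPKM. DPF1, TCEAL2, BEND4 and DMRT2 ranged from 1.57 to 1.89. On the list of developmental transcription factors 17 of 30 listed genes were lower and 13 higher, about the share of all listed genes (1080 and 867). On it 5 were members (among them SIX2, ISL2, BARX2 and HES7), and 2 were low genes rising.

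Enzymes of lipid, steroid and xenobiotic metabolism were the list with the most members by number, 9 of 57 listed genes, although 40 of the 57 were higher with ebastine. Only genes under 2 FPKM with ebastine could be members, so the share of members also follows how many low genes a list holds. The lipid list also had 7 low genes rising, beside 170 of all 1947 listed genes. Members made up 15.8% of this list, beside 7.6% of all listed genes. This share was below that of glycosylation enzymes (22.2%) and of growth factors, cytokines and hormones. It was also below that of developmental transcription factors and of receptor tyrosine kinases and cytokine receptors. The phospholipase PLA2G4D (chr15:42359881-42386752) stood at 3.99 FPKM with vehicle and 1.11 with ebastine, a 3.60-fold ratio. PLA2G4A, its relative that releases arachidonic acid from membranes, went from 1.003 to 0.547 FPKM, and PTGS1, the cyclooxygenase that acts on arachidonic acid, from 1.61 to 0.984 FPKM. PLCH1, a phospholipase C, stood at 2.31 and 1.49 FPKM. Among cytochrome P450 genes, CYP1B1, which hydroxylates estrogens and aromatic hydrocarbons, went from 3.12 to 1.55 FPKM. CYP11A1, which makes pregnenolone from cholesterol, stood at 1.15 and 0.671 FPKM, and CYP4Z1, which has a close pseudogene, at 0.694 and 0.269 FPKM. The monooxygenase FMO5 had a ratio of 1.87 and the acyl-CoA dehydrogenase ACADL, outside the list, one of 1.80. PLA2G4D, CYP1B1, PTGS1 and PLCH1 had q-values from 0.00178 to 0.0219 in the authors' deposited table. The upstream 250 bases of PLA2G4D are shown as the example of a member with TATAAA close to the start, 31 bases before it and on the opposite strand, in capitals.
PLA2G4D, chr15:42094563-42094812, minus strand: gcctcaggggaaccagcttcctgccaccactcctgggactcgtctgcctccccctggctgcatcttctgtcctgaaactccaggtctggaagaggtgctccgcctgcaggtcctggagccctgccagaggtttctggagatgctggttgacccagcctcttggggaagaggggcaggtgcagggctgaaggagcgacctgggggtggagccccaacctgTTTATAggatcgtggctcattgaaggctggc

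Other metabolic enzymes numbered 8. The glycine decarboxylase GLDC stood at 1.86 and 1.15 FPKM, the mitochondrial folate enzyme ALDH1L2 at 0.541 and 0.330 FPKM, and NAGS, which makes the activator of the urea cycle, at 0.525 and 0.165 FPKM, a 3.18-fold ratio. LIPT2, a transferase of lipoic acid synthesis, stood at 3.83 and 1.97 FPKM. MDH1B, PRTFDC1 and CA8 had ratios of 1.65, 1.91 and 2.14. GLDC, PRTFDC1, CA8 and UQCRHL had q-values from 0.0211 to 0.0478 in the authors' deposited table. Glycosyltransferases numbered 4 of 18 listed on the glycosylation list. FUT3, the Lewis antigen fucosyltransferase, went from 2.14 to 0.947 FPKM, ST8SIA4, which builds polysialic acid, from 0.780 to 0.364 FPKM, MGAT4A from 2.56 to 1.64 FPKM, and GALNT12 from 1.03 to 0.559 FPKM. FUT3, ST8SIA4 and MGAT4A, but not GALNT12, had q below 0.05 in the authors' deposited table. The 5 ubiquitin ligase components had the lowest median ratio of any class, 1.55, and 0 of them had q below 0.05 in the authors' deposited table. They were MID1 (1.27 to 0.629 FPKM), FBXO15 (1.42 to 0.828 FPKM), PELI1 (2.44 to 1.63 FPKM), KLHL1 (1.75 to 1.14 FPKM) and KBTBD8 (0.588 to 0.380 FPKM).

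Noncoding RNAs, pseudogenes and unnamed transcripts, classed by their names in the table, numbered 18. CCDC163P is among them by its name, but its current symbol is annotated as protein-coding and it was counted so in the promoter comparison. H19, the imprinted noncoding RNA beside IGF2, stood at 2.87 FPKM with vehicle and 1.33 with ebastine, a 2.15-fold ratio with a q-value of 0.00178 in the authors' deposited table. The highest, AK097957 (3.95 to 1.72 FPKM), has the same reported locus as the mitotic gene CDCA3, so their reads may not be separable. The unnamed transcripts BC032795 (3.07 to 1.21 FPKM) and BX647938 (0.592 to 0.322 FPKM) and the pseudogene ROCK1P1 (1.83 to 0.971 FPKM) also had q below 0.05 in the authors' deposited table. DQ574505 stood at 3.08 and 1.75 FPKM and WHAMMP3 at 2.46 and 1.56 FPKM. BC036435 had a 3.07-fold ratio, from 0.692 to 0.226 FPKM, and its neighbours AX747988 and MST1P2 had ratios of 1.78 and 1.56. CCDC163P, DPY19L2P2, BC080605, AK056073, AK124523, RBM26-AS1 and BC033260 had ratios from 1.53 to 1.97. The remaining 16 genes are of other or little known function. TMEM74B, a membrane protein, went from 3.23 to 1.39 FPKM, RANBP3L from 2.65 to 1.44 FPKM, and PRR16 from 2.05 to 0.891 FPKM. PROCA1 stood at 1.30 and 0.465 FPKM, C18orf54 at 1.31 and 0.845 FPKM and ZC3H6 at 0.900 and 0.556 FPKM. These 6 had q-values from 0.00945 to 0.0476 in the authors' deposited table. TEX19 stood at 2.18 and 1.41 FPKM, PCP4L1, with a 3.79-fold ratio, at 0.520 and 0.137 FPKM, and FAM115C, which has close copies, at 0.611 and 0.324 FPKM. The pore-forming gasdermin DFNA5 stood at 1.08 and 0.620 FPKM. LRRC10B, NAP1L3, CAPS2, FAM198A, TM4SF18 and RALYL had ratios from 1.52 to 2.09.

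Across the classes, 15 of the 148 genes are known mainly from neurons or glia. They were marked by hand once the members were known, and such genes were not counted among the other listed genes, so the number does not show that the set is rich in them. Among them were PRPH, CBLN2, MAP2, PPP1R1B, DPYSL3, ISL2, SLITRK6, KLHL1, C1QL1, DMBX1, CA8, OLIG1, NAV2 and GRIK5, and the 15 stood between 0.798 and 3.33 FPKM with vehicle. Their median ratio was 1.72, and 3 of them were at least 2-fold lower. Among these 15 genes, 7 had a q-value under 0.05 by the authors' deposited table.

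Genes of the same kinds also lay among the low genes rising. Only 47 of the 148 falling genes were on a list of genes by function, and 101 were on none. Receptor tyrosine kinases and cytokine receptors had 2 falling members, EPHA3 and RET, and 3 rising ones. Adhesion and matrix genes had 3 (LOX, CLDN8 and ADAM12) and 7, signalling kinases and phosphatases 2 and 4, cytoskeletal genes 1 and 2, and immunity genes 2 and 5. Of those 2 immunity genes, C5 is a complement protein and C1QL1 a synaptic one. Ubiquitin genes had 4 falling and 1 rising, and glycosylation genes 4 and 1, beside 148 and 170 of all 1947 listed genes. With a 2-fold limit 0 of these ubiquitin genes and 2 of the glycosylation genes remained. The mitosis, hypoxia, developmental factor and lipid enzyme lists also had more falling than low rising members. Androgen receptor targets had 0 members. Of their 19 listed genes 12 were lower and 7 higher (10 and 9 after centring), 6 and 3 of them by at least 1.5-fold.

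**Figure D4:**
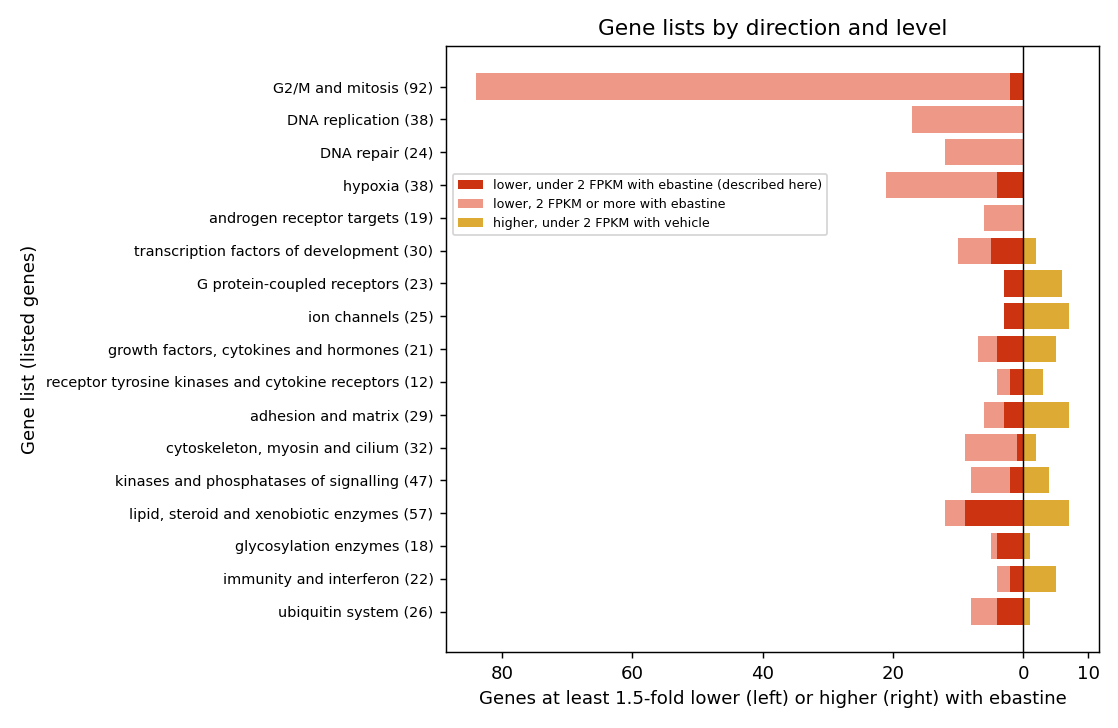
Number of genes on each list that were at least 1.5-fold lower (left of 0) or at least 1.5-fold higher from under 2 FPKM with vehicle (right of 0), with the number of listed genes in brackets and genes left out by name not drawn. The cell cycle lists consist almost wholly of genes that stayed at 2 FPKM or more (pale red), while receptors, channels and lipid enzymes hold low genes on both sides.

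The size of the ratios depended on the scaling of the libraries, while their direction was fixed by the 1.5-fold limit of the rule. Centring sets the median ratio to 1 over listed genes whose mean reaches 10 FPKM, and raises the ebastine values by a factor of 1.27, or 0.35 in log2. All of these genes had a p-value of at most 0.0499 in the authors' deposited table. The factor may therefore follow their balance of falls and rises, which was not tested. Centring left 68 of the 148 genes at least 1.5-fold lower, and the smallest ratio was then 1.18. Equal upper quartiles, a factor of 1.15 or 0.21 in log2, left 98.

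The genes were scattered over the genome. Chromosome 19 held 17 of them, out of 121 listed genes there, and chromosome 1 held 15 of 189. Within 500 kb of another of the 148 lay 25 genes, in 14 pairs, beside 71.5% of all 1947 listed genes with a listed neighbour, a denser set. Besides KLK12 and KLK14, the closest pairs with gene symbols were RAPGEF5 and STEAP1B, 62.5 kb apart on chromosome 7, and NAGS and C17orf53, 133 kb apart on chromosome 17. On chromosome 1, BC036435, AX747988 and MST1P2 lay within 109.9 kb of each other. The median reported locus length was 25.9 kb, against 31.5 kb over all listed genes.

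RefSeq promoter windows, from 250 bases before to 50 bases after the start in GRCh38.p14, were found for 106 of the 130 protein-coding members. The CpG ratio, observed over expected, had a median of 0.705 in these. From the higher falling genes, at least 1.5-fold lower but at 2 FPKM or more with ebastine, the same names were left out. The median there was 0.878 in 272 of 325 protein-coding genes. It was 0.824 in 1485 listed protein-coding genes and 0.580 in all 27305 promoters of the table. A ratio of at least 0.6, as in CpG islands, was present in 65 of 106 (61.3%), 238 of 272 (87.5%), 79.0% and 49.0%. The members differ in level from the other falling genes by the rule, and the part of level in this difference was not tested. Of the 151 protein-coding low genes rising, 110 had a window. Their median CpG ratio was 0.702, and 55.5% reached 0.6, so a lower CpG ratio was not particular to the falling genes. CCAAT was present on either strand in 31 of the 106 windows (29.2%), against 51.5% of the higher falling genes, 41.8% of all listed genes and 35.7% of all promoters. TTTGAA was present in 10 windows (9.43%), against 31.25%, 14.4% and 15.4%. TATAAA was present in 12 windows (11.3%), against 6.99%, 8.35% and 11.95%. GGGCGG, the core of the Sp1 box, was present in 58.5%, against 71.0%, 70.2% and 44.6%, and TGANTCA, the AP-1 site, in 6 windows (5.66%), against 2.21%, 4.31% and 7.76%. TTCGAA was found in 2 windows, TTTCCCGC in 4 and TTTGGCGC in 1. In the 110 windows of the low genes rising, CCAAT was present in 28.2%, TTTGAA in 10.9%, TATAAA in 12.7%, GGGCGG in 53.6% and TGANTCA in 7.27%. These shares lay nearer to those of the members than to those of the higher falling genes. For ACGTG the share was 18.2%, against 33.0% in the members and 26.5% in the higher falling genes. Among the members whose mean reached 1 FPKM, 61 windows gave a median CpG ratio of 0.725 and CCAAT in 34.4%.

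**Figure D5:**
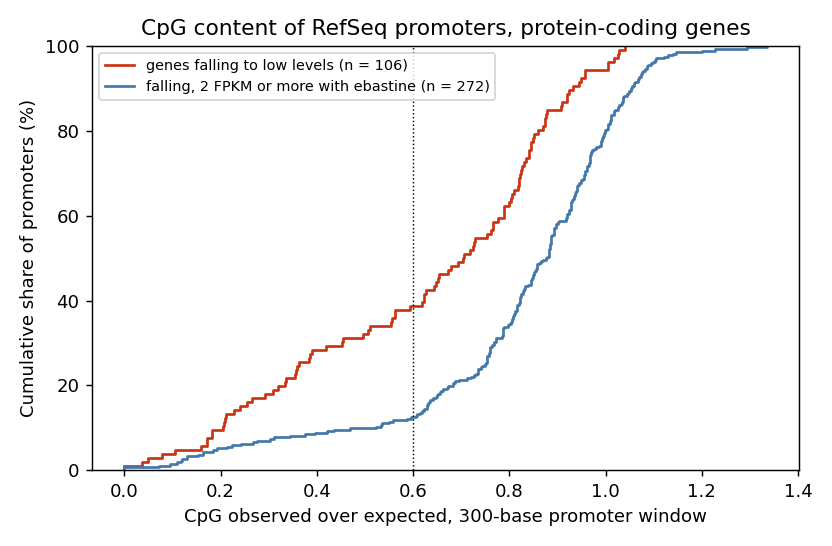
Cumulative share of promoters (vertical, percent) by CpG ratio, observed over expected, in the RefSeq window (horizontal) for protein-coding genes falling to low levels (red, n = 106) and for those staying at 2 FPKM or more (blue, n = 272). At the dotted line of 0.6 the red curve has passed 38.7% of its promoters and the blue curve 12.5%. The low genes rising are not drawn.

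Markers of cell types were looked up in the table because the members include genes of many lineages. Of the luminal prostate markers 4 were listed, of which KLK3, KLK2 and TMPRSS2 were lower with ebastine and FOLH1 higher. After centring 2 were lower and 2 higher. KLK3 stood at 2476 FPKM with vehicle and 1599 with ebastine, KLK2 at 465 and 272 FPKM, TMPRSS2 at 362 and 289 FPKM, and FOLH1 at 495 and 840.4 FPKM. In the authors' deposited table the q-value of TMPRSS2 was 0.245, while those of KLK3, KLK2 and FOLH1 were 0.00466, 0.00178 and 0.00178. Of the basal, fibroblast and endothelial markers 0 were listed, of the neuroendocrine ones only ENO2 (14.1 and 8.20 FPKM), and of the leukocyte ones only CD4 (0.400 and 0.693 FPKM). No marker was among the 148 genes. Genes outside the table were not analysed here, and with 1 library per group and no counts the depth is unknown.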

How the data were processed

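C4-2 cells were measured by RNA sequencing with 1 library per group, so there are no replicates, no test between groups was made and no error can be given. Per the submitters' processing notes, TopHat2, Cuffdiff and hg19 were used, with no version stated there. The authors deposited FPKM values per gene, with the p-value and q-value of their own comparison, also deposited, in a table of 1947 genes. For gene models, strand setting, scaling and multiply mapped reads the sources used here give nothing. The FPKM values carry no counts, so depth and counting precision are unknown.

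From the deposited FPKM values the plain ratio of vehicle over ebastine was computed with no pseudocount. A gene at 0 got no ratio but counts as past every fold. Locus starts count from 0 in the file and were converted, since lengths then equalled the reference for 86 of 1876 genes, against 33 otherwise. Symbols were matched to reference tables: 126 of the 148 members had a current symbol, 10 an older one and 12 had no match. Promoters are from RefSeq (GRCh38.p14) and were compared over protein-coding genes only. At least 81.4% of these had a window among members, higher falling genes and all listed genes. In the low genes rising only 72.8% had one, so the values of that set are less complete. Motifs were searched on both strands and can overlap. Functional classes were assigned by hand after the members were known. The members, the 23 gene lists and the rule for named genes were chosen with earlier results of these data known. List entries starting with HMG or NRG were narrowed after the table was seen, because they took unrelated genes. The rule let every member be named, in full for the 15 highest with vehicle, the 15 largest ratios, those with a deposited q-value under 0.05, those at 0, those on a list and up to 5 of each class. A few items under the rule are not reported here. Non-members are named at the limits, where left out by name or as cell type markers. APAF1, CDCA3, UQCRH, ARHGAP11A and STEAP1 are named only as copies of members or genes that share a locus. The alternatives were other limits, pseudocounts of 0.1, 1 and 5 FPKM, and rescaled libraries. Selection and ratios were tested on simulated data. Python 3.11.15, pandas 2.3.3, numpy 2.4.6 and matplotlib 3.10.9 were used.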

Additional observations from a re-analysis of the deposited data

How the results depend on the processing

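The number of genes depends on the limits. It was 148 as reported, 95 with a limit of 1 FPKM, 190 with 3 FPKM, 61 with a 2-fold limit, 63 after centring, 93 with equal upper quartiles and 56 with q under 0.05 by the authors' deposited table. Their median ratio, 1.86, was 1.77, 1.36 and 1.12 with pseudocounts of 0.1, 1 and 5 FPKM, 1.46 after centring, 1.61 with equal upper quartiles and 1.80 over genes whose mean reached 1 FPKM. At least 2-fold lower were 61 as reported, 48, 6 and 0 with those pseudocounts, 24 after centring, 39 with equal upper quartiles and 28 with that mean. A pseudocount shrinks low values by construction. The direction of the individual ratios was fixed by the 1.5-fold limit and could not reverse under these settings. With the 2-fold limit all 4 members remained on the list of growth factors, cytokines and hormones, and 3 of 9 on that of lipid enzymes. No paired analysis was possible because each group holds 1 library. Depth is unknown, so counting error at under 1 FPKM cannot be stated.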
